A study of Homo sapiens with 6 samples.

Results

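The clustered protocadherins are cell adhesion proteins encoded in 3 gene clusters, alpha, beta and gamma, that follow each other on the long arm of chromosome 5. Their genes were taken by name from the deposited table: alpha genes (PCDHA with a number, PCDHAC), beta genes (PCDHB) and gamma genes (PCDHGA, PCDHGB and PCDHGC). This gave 54 of the 35639 genes in the table, with 16 alpha, 16 beta and 22 gamma genes. PCDHA14, 1 of the 16 alpha genes, is annotated as a pseudogene. Pseudogenes of the clusters with names ending in P are outside this rule and are given separately.

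The study sequenced poly(A) RNA of hFOB, a human fetal osteoblastic cell line that is immortalised with a temperature-sensitive large T antigen and divides at 34 °C. Cells were transduced with a lentiviral vector and sorted for the fluorescent marker dTomato, and they were collected in duplicate 15 days after transduction. The vector was empty (EV) or carried HA-tagged histone H3.3, either wild type (H3.3-WT, here WT) or with tryptophan in place of glycine 34 (H3.3-G34W, here G34W), the change found in giant cell tumour of bone. The tagged histone is encoded by Drosophila His3.3A, which the human gene table does not hold, and the cells keep their own H3.3 genes, so the transgene could not be used to check the labels.

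Groups follow the library titles; the genotype field of the labels names the G34W and WT libraries the other way round, so every direction between them given here rests on the titles. EV replicate 1 was left out, because it is listed at 0 for 28688 of the 35639 genes, 39 of the 54 protocadherin genes among them. The comparisons hold EV replicate 2 and both replicates of WT and G34W. Values following WT or G34W are those of replicates 1 and 2, in that order, and EV stands for EV replicate 2. Work on these cells drew on independent infections and replicates were wells within an experiment, but which infection each library came from is not given, so p-values measure the spread between these libraries, which may be technical.

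All values are signal: estimated counts per gene that the authors normalised between libraries, which are not divided by gene length. The 5 libraries summed to between 38821143 and 48024590 in signal. Of the small values, between 57.4% and 67.0% per library are whole multiples of a step, which lies between 0.512 and 0.729, and the others are not. If the step is 1 read, the libraries hold very roughly 66000000 to 79000000 reads, and a signal of 10 is about 14 to 20 reads. Markers of the labelled cell type were present in all 5 libraries. The list of 8 osteoblast and fibroblast markers was led by COL1A2, a chain of type I collagen, with 111335 in EV, 98769 and 90034 in WT and 91016 and 138799 in G34W, and none of the 8 was at 0.

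Each alpha and gamma gene that encodes a protein contributes its own large exon, which encodes the extracellular cadherin repeats and the membrane span, and this exon is spliced to constant exons that all genes of the cluster share. Beta genes have no constant exons. In neurons, single cells use a few of the variable promoters each, apparently at random, and the combination of isoforms on the surface lets a cell tell its own branches from those of other cells. The promoters are silenced by DNA methylation, and active ones bind CTCF and cohesin, which fold them towards distant enhancers. Outside the nervous system expression is lower, and the promoters are a known target of methylation changes in tumours.

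In RefSeq annotation on GRCh38.p14 all 54 genes were found on chromosome 5. The alpha genes lie at chr5:140786140-141012347, from PCDHA1 to PCDHAC2, the beta genes at chr5:141051374-141249365, from PCDHB1 to PCDHB15, and the gamma genes at chr5:141330514-141512975, from PCDHGA1 to PCDHGC5. Canonical transcripts, taken by gene identifier from an annotation used here for exon structure and length only, shared 3 exons in both the alpha and the gamma cluster. In alpha 13 of 14 canonical transcripts held them, all but that of PCDHA14, which has a single exon. The shared exons made up 2869 bases in alpha, where the median transcript has 5402.5 bases, and 2177 bases in gamma, where it has 4775.5. Among beta genes, 14 of 16 canonical transcripts had a single exon. Reads from shared exons, or from stretches alike among paralogs, can be split between genes when counts are estimated, so values of single genes are uncertain and the sum over a cluster is less so.

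The stretch before each start is shown for 11 genes that the results turn on, because most clustered protocadherin promoters have a short conserved element with the core letters CGCT. A match to these letters in a single sequence need not be that element. Sequences are 100 bases long and end at the base before the RefSeq start. They are from RefSeq on GRCh38.p14, on the plus strand, which is the strand of the genes, and capitals mark CGCT or, where it lies on the other strand, AGCG. From the alpha cluster they are PCDHA4 (chr5:140806968-140807067), PCDHA6 (chr5:140827860-140827959), PCDHA10 (chr5:140855797-140855896) and PCDHAC2 (chr5:140966376-140966475). From the beta cluster they are PCDHB1 (chr5:141051274-141051373), PCDHB2 (chr5:141094515-141094614), PCDHB15 (chr5:141245295-141245394) and PCDHB16 (chr5:141182287-141182386). From the gamma cluster they are PCDHGA10 (chr5:141412887-141412986), PCDHGA11 (chr5:141420951-141421050) and PCDHGC3 (chr5:141475866-141475965).
PCDHA4: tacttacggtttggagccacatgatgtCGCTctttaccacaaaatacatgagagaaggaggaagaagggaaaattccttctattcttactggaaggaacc
PCDHA6: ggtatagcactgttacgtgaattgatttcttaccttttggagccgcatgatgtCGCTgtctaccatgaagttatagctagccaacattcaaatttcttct
PCDHA10: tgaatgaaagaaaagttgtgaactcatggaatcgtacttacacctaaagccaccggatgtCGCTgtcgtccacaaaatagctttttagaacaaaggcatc
PCDHAC2: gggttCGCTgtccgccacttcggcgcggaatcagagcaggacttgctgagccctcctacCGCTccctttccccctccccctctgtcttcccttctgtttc
PCDHB1: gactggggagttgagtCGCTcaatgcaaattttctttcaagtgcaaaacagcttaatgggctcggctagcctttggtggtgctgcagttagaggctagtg
PCDHB2: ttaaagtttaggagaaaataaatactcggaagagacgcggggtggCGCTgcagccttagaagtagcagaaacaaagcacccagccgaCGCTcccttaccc
PCDHB15: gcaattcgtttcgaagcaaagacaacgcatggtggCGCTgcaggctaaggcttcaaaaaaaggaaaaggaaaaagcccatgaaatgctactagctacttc
PCDHB16: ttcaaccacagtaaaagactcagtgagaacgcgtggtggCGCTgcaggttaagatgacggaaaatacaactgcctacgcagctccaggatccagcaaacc
PCDHGA10: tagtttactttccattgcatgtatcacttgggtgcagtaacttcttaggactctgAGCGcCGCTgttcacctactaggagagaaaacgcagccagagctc
PCDHGA11: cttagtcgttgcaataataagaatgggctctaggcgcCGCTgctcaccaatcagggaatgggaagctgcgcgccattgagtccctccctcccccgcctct
PCDHGC3: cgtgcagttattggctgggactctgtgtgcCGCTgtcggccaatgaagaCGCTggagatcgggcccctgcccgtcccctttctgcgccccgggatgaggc

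CGCT was searched on both strands in windows from 250 bases before to 50 bases after the start, which were at hand for 47 of the 54 genes. Windows for PCDHA3, PCDHA13, PCDHA14, PCDHB6, PCDHB11, PCDHGA12 and PCDHGC5 were not used here. On the strand of the gene, 46 of the 47 windows held CGCT, and PCDHA9 was the exception, against 54.3% of all 35116 promoter windows. With the first letter between 30 and 100 bases before the start, a range chosen after the positions were seen, the gene strand held CGCT in 43 of the 47 windows, against 21.6% of all windows. The opposite strand held it in the same range in 9 of the 47, against 21.8% of all. Of the alpha windows 12 of 13 had it in that range on the gene strand, of the beta windows 12 of 14 and of the gamma windows 19 of 20. The exceptions were PCDHA9, PCDHB5, PCDHB8 and PCDHGB2. AGNNGGCGC, a part of the CTCF consensus, was found on either strand in 3 of the 47 windows, those of PCDHB7, PCDHB9 and PCDHGC4, against 10.4% of all windows. These are matches of letters and not measured binding.

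**Figure D1:**
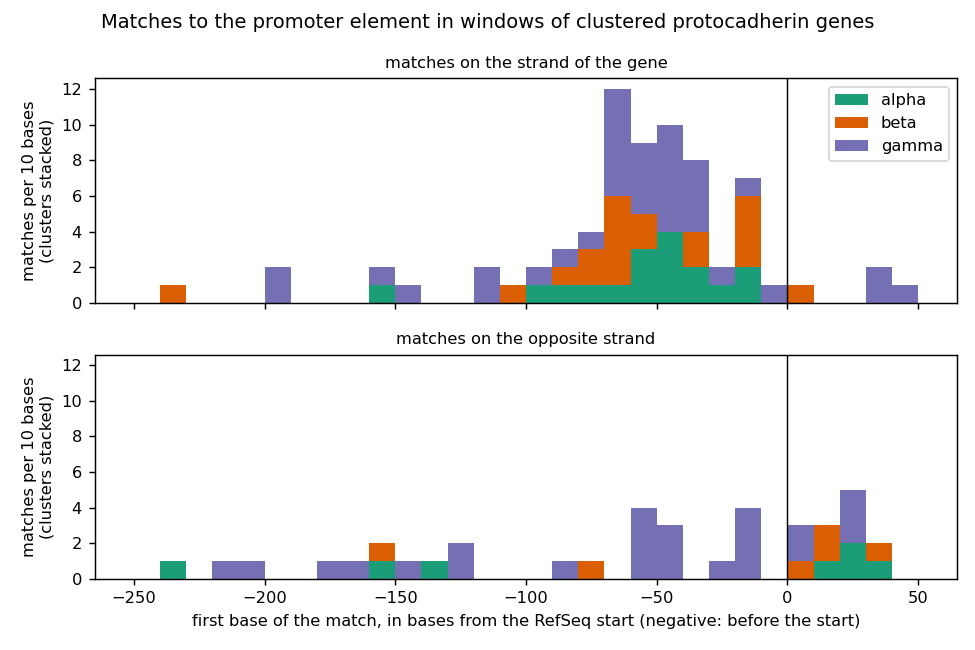
Matches to the core letters of the promoter element in the windows of 47 clustered protocadherin genes, counted in steps of 10 bases from the RefSeq start, on the strand of the gene (upper panel) and on the opposite strand (lower panel), with the clusters stacked. On the gene strand matches gather between 30 and 100 bases before the start.

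In the 4 libraries other than G34W replicate 1, the gamma cluster held nearly all protocadherin signal. Its sum was 3753 in EV, 3897 and 4250.3 in WT and 3399 and 4338 in G34W. Gamma genes made up 94.7% of the signal of the 54 genes in EV, 93.1% and 94.1% in WT and 94.4% in G34W replicate 2, but 55.4% in G34W replicate 1. All 54 genes together were a small part of each library, between 0.0094% and 0.0158% of its summed signal. In bulk RNA, fewer cells that express a gene and less RNA per cell cannot be told apart.

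The alpha sum was 88.0 in EV, 109 and 93.1 in WT and 1460.4 and 104 in G34W. G34W replicate 1 alone was high, 13.4-fold above the next highest library, and G34W replicate 2 lay between the WT libraries. The beta sum was 121 in EV, 181 and 171 in WT and 1271 and 155 in G34W. Here too G34W replicate 1 stood apart, 7.03-fold above the next highest library, and G34W replicate 2 lay below both WT libraries. The gamma sum of G34W replicate 1 was the lowest of the 5 libraries and that of G34W replicate 2 the highest.

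**Figure D2:**
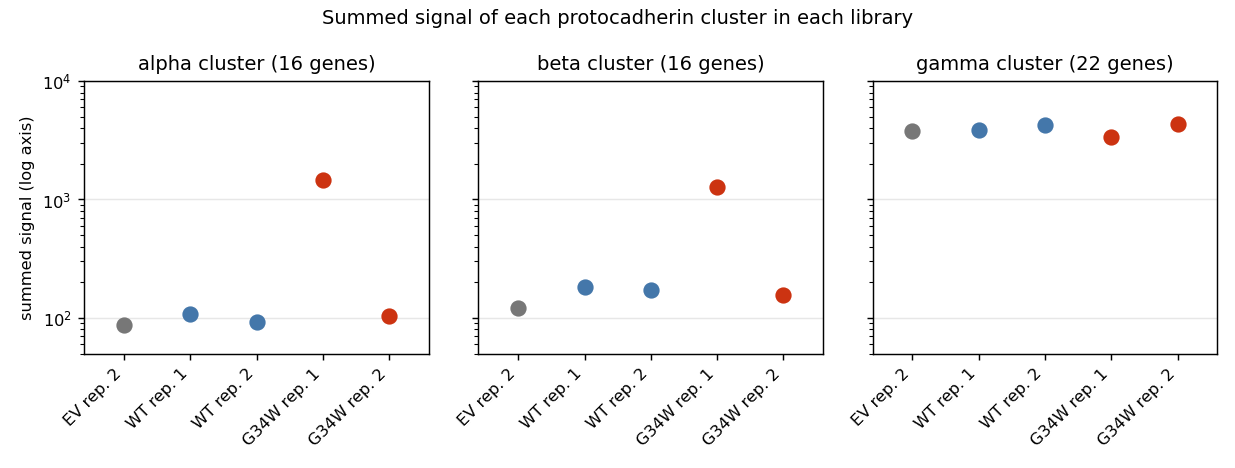
Summed signal of the 16 alpha, 16 beta and 22 gamma genes on a log axis, 1 point per library (grey EV, blue WT, red G34W). The alpha and beta sums of 1460.4 and 1271 in G34W replicate 1 lie above the other 4 libraries, and the gamma sums overlap between groups.

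On the log2 scale the mean sum of G34W minus that of WT was 1.95 for alpha, 1.33 for beta and -0.08 for gamma. The standard deviation between replicates, pooled over both groups, was 1.91, 1.52 and 0.19 on the same scale, so the beta and gamma differences were smaller than it and the alpha difference about as large. An exact permutation test of 2 libraries against 2, two-sided, cannot give a p below 0.333, and it gave 0.667 for alpha, 1.0 for beta and 1.0 for gamma. Without G34W replicate 1 the differences were 0.05 for alpha, -0.19 for beta and 0.09 for gamma, so the alpha and beta differences rested on that library, and the beta and gamma differences changed sign without it. Without the gene with the highest mean in each cluster the difference was 3.70 for alpha, 1.14 for beta and -0.29 for gamma, where that gene is PCDHGC3.

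Gene by gene, 37 of the 54 genes had a mean of at least 10 over the 5 libraries and were tested with all other such genes in limma on log2(signal + 1), 9 alpha, 9 beta and 19 gamma genes. Of these, 6 alpha genes (PCDHA3, PCDHA6, PCDHA7, PCDHA11, PCDHA12 and PCDHAC2) and 3 beta genes (PCDHB3, PCDHB5 and PCDHB15) passed only through G34W replicate 1, so the counts among tested genes are descriptions of this library as much as of the groups. The other 17 genes had means of at most 7.53, and the highest single value among them was 32.1.

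Between G34W and WT, limma gave 0 of the 37 genes an adjusted p under 0.05, as it did for 0 of all 16259 genes tested (0%). At an unadjusted p under 0.05, PCDHA10 and PCDHB15 were higher in G34W, 2 of 37 against 1.63% of all genes, and PCDHGA10 was lower, 1 of 37 against 1.07% of all genes. Without G34W replicate 1 the fit had only PCDHGA10 among 28 genes tested, against 1.62% of all genes in that fit, and PCDHB15 was below its filter. Without G34W replicate 2 it had 12 genes of 37, all of them higher in G34W, where 6.03% of all genes were called higher, but this fit has 1 G34W library and 9 of the 12 passed the filter only through it. Among the genes that pass without it, PCDHA10, PCDHB2 and PCDHB16 were called, 3 of 28, against 4.07% of all genes filtered in the same way. With all 6 libraries none of the 3 was called. PCDHA10 was also lost without a variance trend and without the filter, and PCDHGA10 without the filter, without WT replicate 1 and without G34W replicate 2. Both G34W libraries lay above both WT libraries for 7 of the 37 genes, against 11.6% of all genes, and below both for 5, against 14.7%. Of the 7, PCDHA6, PCDHA7 and PCDHB15 passed only through G34W replicate 1. Among the 28 genes with a mean of at least 10 over the other 4 libraries, PCDHA9, PCDHA10, PCDHB16 and PCDHGA1 were above, 4 of 28 against 1750 of 15917 genes filtered in the same way, and 5 of 28 were below, against 15.2%. The median log2 fold change was 3.26 over the 9 alpha genes, 2.19 over the 9 beta genes and -0.07 over the 19 gamma genes, against -0.06 over all genes tested. Without PCDHA3, PCDHA12 and PCDHB3, which WT lists at 0, the medians were 2.91 for alpha and 1.33 for beta. Over the genes that pass without G34W replicate 1, the medians were 1.61 for 3 alpha genes, 0.37 for 6 beta genes and -0.07 for 19 gamma genes, against -0.07 over all genes filtered in the same way, and the values of G34W replicate 1 still enter them.

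Taken one library at a time, the G34W replicates gave different medians. Over all 16 alpha genes, G34W replicate 1 had a median difference of 4.17 from the mean of WT on the log2(signal + 1) scale, and G34W replicate 2 had 0.32. Over the 16 beta genes the medians were 1.83 and -0.33, and over the 22 gamma genes -0.07 and -0.16. Among all genes tested the median difference was -0.17 in replicate 1 and 0.04 in replicate 2. G34W replicate 1 exceeded 2 times the highest of the other 4 libraries for 14 of the 37 genes, 9 alpha and 5 beta, against 6.05% of all genes tested. Among genes with a mean of at least 10 over those other 4 libraries it did so for PCDHA4, PCDHA9, PCDHA10, PCDHB2 and PCDHB16, 5 of 28, against 3.79% of all genes filtered in the same way. Of all 54 genes, 29 had their highest value in G34W replicate 1, 15 of 16 alpha, 10 of 16 beta and 4 of 22 gamma genes. Among tested genes alone it was 18 of 37, against 3255 of all 16259. Of the 18, 9 passed the filter only through G34W replicate 1, so this count follows in part from the filter.

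**Figure D3:**
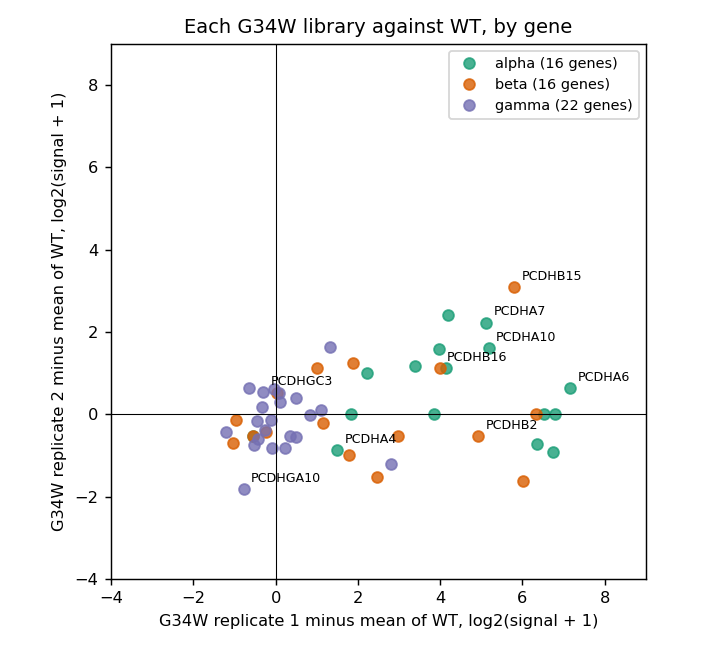
Difference of each G34W library from the mean of the WT libraries on the log2(signal + 1) scale for each of the 54 genes, with G34W replicate 1 across and G34W replicate 2 upwards, coloured by cluster. Alpha and beta genes spread to the right, with medians of 4.17 and 1.83 in replicate 1, and gamma genes lie around 0 on both axes.

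G34W replicate 1 also stood apart in marker genes. All 12 of a list of pluripotent stem cell markers were highest there, and their sum was 66363 in that library, against 1142 in EV, 982 and 1058 in WT and 955 in G34W replicate 2. POU5F1, a transcription factor of pluripotent cells and the most abundant of the list, had 19441 in G34W replicate 1 and 41.6 in EV, 47.3 and 75.4 in WT and 65.7 in G34W replicate 2. Of the 12 markers, UTF1 was at 0 in EV, WT replicate 2 and G34W replicate 2. SALL4 and LIN28B were higher in G34W than in WT at an unadjusted p under 0.05 in limma, 2 of the 11 tested against 1.63% of all genes. The median log2 fold change of these 11 was 3.26. For each library alone, their median difference from the mean of WT was 6.82 in G34W replicate 1 and -0.20 in replicate 2. SOX2 passed the filter only through G34W replicate 1, with a mean of 6.11 over the other 4 libraries.
The sum of the 8 osteoblast and fibroblast markers was 220471 in EV, 202962 and 214496 in WT and 192291 and 262576 in G34W, so it was lowest in G34W replicate 1, with a median log2 fold change of 0.03 and 0 genes at an unadjusted p under 0.05. ALPL and SPP1, markers of bone formation, went the other way, with 1216 and 649 in G34W replicate 1 and 428 and 544 in the next highest library. BGLAP and RUNX2, also bone markers, were lowest in that library, with 4.08 and 236. BGLAP was below both WT libraries (44.9 and 39.3) in both G34W libraries. EV, with 5.55, was below G34W replicate 2 (27.4), so WT was the high group for BGLAP. Neural markers summed to 4184 in EV, 3862 and 7405 in WT and 6056 and 5920.2 in G34W, and their most abundant gene, TUBB3, a neuronal tubulin, had 4065 in EV, 3747 and 7295 in WT and 5682 and 5766 in G34W. DCX, a microtubule protein of young neurons, had 196 in G34W replicate 1, with 6.83 in the next highest library. It was higher in G34W at an unadjusted p under 0.05 in limma, 1 of 4 tested neural markers against 1.63% of all genes. DCX and PAX6 passed the filter only through G34W replicate 1, with means of 2.87 and 3.58 over the other 4 libraries. The call of DCX is thus a description of this library as much as of the groups. The neural sum is nearly all TUBB3. DCX, PAX6 (37.2, next highest 5.96) and STMN2 (23.2, next highest 3.44) were above 2 times the other libraries in G34W replicate 1, against 6.05% of all genes tested. NEUROD1 and SOX1 were at 0 in EV and both WT libraries. Of the 8 neural markers, PAX6, DCX, SYP, STMN2 and SOX1 had both G34W libraries above both WT libraries, against 11.6% of all genes tested. Of these, STMN2 and SOX1 are below the filter. TUBB3, ELAVL4 and NEUROD1 overlapped. Myeloid markers summed to 161 in EV, 202 and 195 in WT and 231 and 101 in G34W, with 0 of 4 tested at an unadjusted p under 0.05. The part of the pluripotency and neural genes of G34W replicate 1 in its alpha and beta values was not tested.

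**Figure D4:**
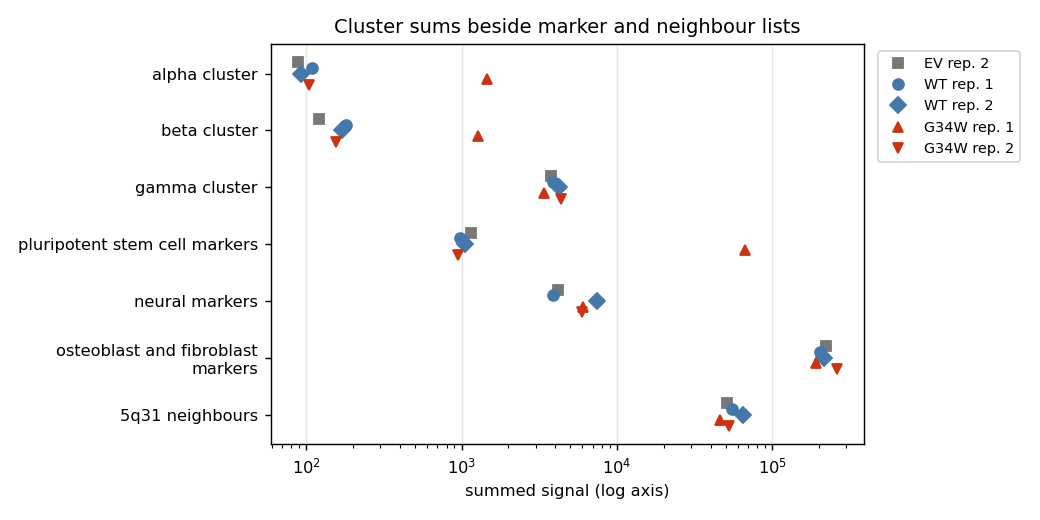
Summed signal per library, on a log axis, of the alpha, beta and gamma clusters and of marker and neighbour lists (grey EV, blue WT, red G34W). G34W replicate 1 is far to the right for alpha (1460.4), beta (1271) and the pluripotent markers (66363), and for no other list does it lie far from the rest, though both G34W sums of the 5q31 neighbours are below both WT sums.

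Among alpha genes in EV and WT, PCDHA4, PCDHA10 and PCDHA9 made up most of the sum, 92.9% in EV and 91.0% and 96.3% in WT. All 3 are variable genes. PCDHA4 had a signal of 47.0 in EV, 83.6 and 75.5 in WT and 226 and 42.8 in G34W. G34W lay on either side of WT, with replicate 1 high and replicate 2 low, and the log2 fold change was 0.31 (standard error 0.78). For PCDHA10 the signal was 19.7 in EV, 7.79 and 7.66 in WT and 316 and 25.4 in G34W. Both G34W libraries were above WT, but EV was close to G34W replicate 2. The log2 fold change of PCDHA10 over WT was 3.39 (standard error 1.18, unadjusted p = 0.0183, adjusted p = 0.9998 in limma), with 5.18 in replicate 1 and 1.60 in replicate 2. PCDHA9 had 14.995 in EV, 7.77 and 6.56 in WT and 36.9 and 15.4 in G34W. It had the same order as PCDHA10, with both G34W libraries above WT and EV level with replicate 2 (log2 fold change 1.61, standard error 1.10).

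The other alpha genes were near 0 except in G34W replicate 1, apart from PCDHA13, which was at 0 there too and had 1.11 in WT replicate 1 alone. PCDHA6 had 192 in G34W replicate 1, 1.10 in replicate 2, at most 0.812 in WT and 0 in EV. For PCDHA7 the values were 56.5 and 6.74 in G34W, 0 and 1.73 in WT and 0 in EV. Both G34W libraries were above WT for these genes, with a gap of many fold between the replicates. PCDHA11 had 202 in G34W replicate 1, 2.59 in WT replicate 1 and 0 in the others. PCDHA12 and PCDHA3 were listed at 110 and 90.6 in G34W replicate 1 and at 0 in the other 4 libraries, as were PCDHA8 and PCDHA14 with lower values, so no fold is given. The promoter windows of PCDHA6 and PCDHA10 hold CGCT 47 and 40 bases before the start. That of PCDHA4 holds it 73 bases before, and that of PCDHA7 81 and 16 bases before. PCDHA4 and PCDHA10 were present in all 5 libraries. A relation of these distances to the signal was not tested.

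C-type genes lie at the end of the alpha and gamma clusters, and they are used more broadly than the variable genes. PCDHAC2, which serotonergic axons need to keep apart from each other, had 132 in G34W replicate 1, 1.45 in EV, 1.69 in WT replicate 2 and 0 in WT replicate 1 and G34W replicate 2. Its neighbour PCDHAC1 had 14.8 and 1.99 in G34W, 1.66 in EV and 0 in both WT libraries, below the filter. Both alpha C-type genes were thus high in G34W replicate 1 and near 0 elsewhere. Without PCDHA4 and PCDHA10, the highest alpha genes in EV, the remaining 14 summed to 21.2 in EV, 17.6 and 9.98 in WT and 919 and 35.9 in G34W. Both G34W libraries were above the other 3 in this sum, from which PCDHA4, lower in G34W replicate 2 than in EV and WT, is missing. That set was chosen after the values were seen, so its permutation p is left out, and with all 16 genes G34W replicate 2 lies between the WT libraries.

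PCDHB1, the first beta gene and set apart from the rest by distance, was the highest beta gene in EV and WT. Its signal was 44.4 in EV, 61.6 and 60.5 in WT and 29.2 and 36.96 in G34W. Both G34W libraries were below WT and EV, with a log2 fold change of -0.87 (standard error 0.67, unadjusted p = 0.221, adjusted p = 0.9998 in limma), and PCDHB1 was the only tested beta gene below WT in both.
PCDHB15, the last beta gene, had 14.6 in EV, 0.926 and 1.82 in WT and 129 and 18.9 in G34W. G34W was above WT in both libraries and WT was the low group, since EV was close to G34W replicate 2. The log2 fold change over WT was 4.45 (standard error 1.34, unadjusted p = 0.00889, adjusted p = 0.9998 in limma), with 5.80 in replicate 1 and 3.10 in replicate 2, and over EV it was 1.71. PCDHB15 passed the filter only through G34W replicate 1, with a mean of 9.07 without that library. Its unadjusted p is thus a description of this library as much as of the groups.
PCDHB16, in the middle of the cluster, had 5.22 in EV, 9.75 and 8.52 in WT and 160 and 20.9 in G34W. Here both G34W libraries were above WT and EV, replicate 1 by far the most, with a log2 fold change over WT of 2.55 (standard error 1.17, unadjusted p = 0.0574, adjusted p = 0.9998 in limma).

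PCDHB2, PCDHB3 and PCDHB5 were high in G34W replicate 1 and not in replicate 2. PCDHB2 had 474 and 9.77 in G34W, 36.5 and 5.51 in WT and 3.86 in EV. For PCDHB5 the signal was 274 and 0.384 in G34W, 0.751 and 9.44 in WT and 0 in EV. PCDHB3 was listed at 78.8 in G34W replicate 1 and at 0 in the other 4 libraries. In all of these G34W replicate 2 was within or below the range of WT. The remaining tested beta genes, PCDHB11, PCDHB13 and PCDHB14, overlapped between WT and G34W, with values between 6.74 and 35.8 over the 5 libraries.

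Compared per length, as signal per kilobase of the canonical transcript, the 9 highest of the 52 genes with such a transcript were gamma genes in the mean of the 4 libraries other than G34W replicate 1. PCDHGC3, a C-type gene that is found in many tissues and whose protein binds the Wnt pathway inhibitor AXIN1, was highest in each of the 5 libraries, with 320.2 per kilobase in EV, 336 and 385 in WT and 291 and 523 in G34W. PCDHGA11 followed with 105 in EV, 150.0 and 124 in WT and 113 and 104 in G34W on the same scale. PCDHGC3 was above PCDHGA11 in every library, by more than the spread of either. The next 4, PCDHGA12, PCDHGA10, PCDHGB4 and PCDHGB5, had means of 73.4, 66.0, 50.1 and 48.0 per kilobase with standard deviations of 22.8, 29.5, 13.8 and 7.71 over these 4 libraries, so their order is within the spread. The highest alpha gene on this scale, PCDHA4, had a mean of 11.6 and PCDHB1, the highest beta gene, 6.38. In G34W replicate 1 the order was different: PCDHB2 came second at 116 per kilobase and PCDHB5 took rank 4 at 80.4, while in the other 4 libraries they stood at 22 and 36 in rank.

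Along the chromosome, the high gamma genes lie in the second part of the cluster, with low genes among and after them. From PCDHGA1 to PCDHGA7, the first 10 gamma genes, the largest mean over the 5 libraries was 42.5, that of PCDHGA6. From PCDHGB4 onwards PCDHGB4, PCDHGB5, PCDHGA10, PCDHGA11, PCDHGA12 and PCDHGC3 had means of 224 or more, while PCDHGA8 and PCDHGA9 between them had 26.3 and 21.7, and PCDHGC4 and PCDHGC5 at the end had 49.1 and 39.8.

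**Figure D5:**
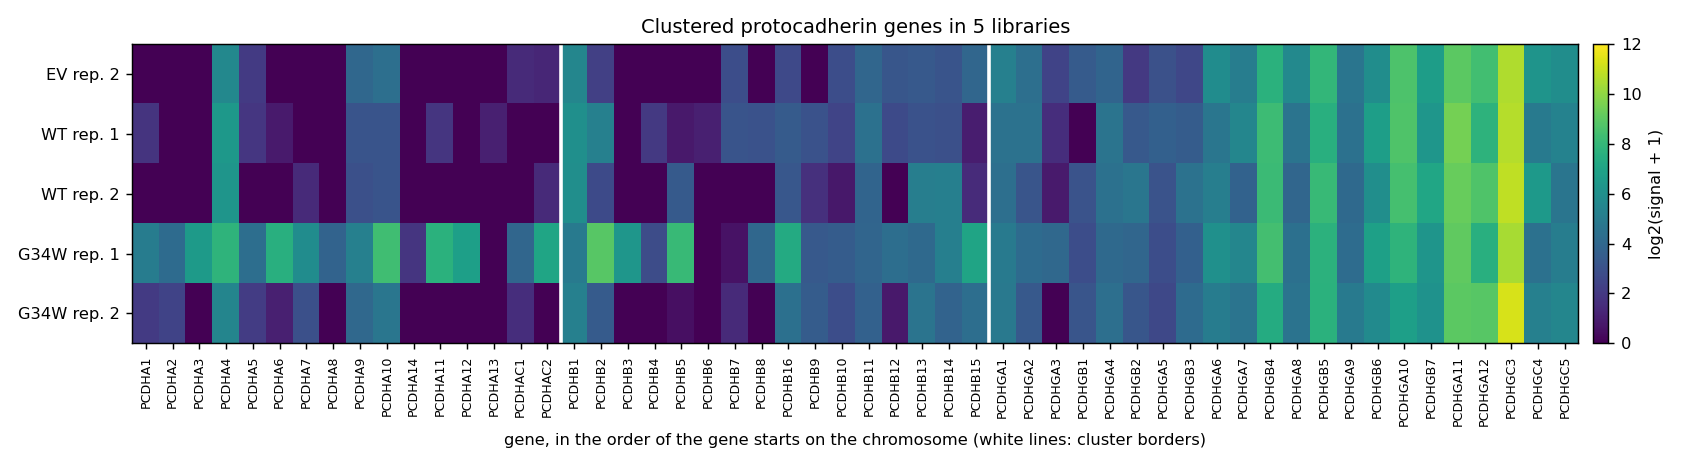
Signal of the 54 genes as log2(signal + 1), with genes in the order of their starts across and the 5 libraries from top to bottom; white lines part the alpha, beta and gamma clusters. G34W replicate 1 has values across the alpha genes, where the other libraries are mostly at or near 0, and all 5 look alike in the gamma cluster, with PCDHGC3 the brightest.

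Gamma genes differed little between G34W and WT, with PCDHGA10 as the exception at an unadjusted p. Its signal was 398 in EV, 410.2 and 352 in WT and 222 and 107 in G34W. Both G34W libraries were below WT and EV, which lay close together. The log2 fold change was -1.29 against WT (standard error 0.44, unadjusted p = 0.0165, adjusted p = 0.9998 in limma), -0.77 in replicate 1 and -1.81 in replicate 2. The A-type genes, to which PCDHGA10 belongs, summed to 1473 in EV, 1539.8 and 1499 in WT and 1186 and 1240.5 in G34W, with G34W below WT and EV in both libraries (log2 difference -0.32, exact permutation p = 0.333, the smallest this design gives). Without PCDHGA10 the sum was 1075 in EV, 1129.6 and 1147 in WT and 964 and 1133 in G34W, and the groups overlapped. B-type genes summed to 627 in EV, 688 and 812 in WT and 774 and 526 in G34W, also overlapping.

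PCDHGC3 had a signal of 1524 in EV, 1600.0 and 1830.2 in WT and 1385 and 2489.8 in G34W. G34W lay on either side of WT, and the log2 fold change of 0.12 (standard error 0.32) changed sign, to -0.30, without G34W replicate 2. PCDHGC4, which mouse interneurons need to survive, had 72.5 in EV, 29.7 and 85.3 in WT and 21.2 and 36.9 in G34W. For PCDHGC5, the last gene of the cluster, the signal was 57.1 in EV, 39.3 and 24.3 in WT and 33.0 and 45.04 in G34W. Neither of these C-type genes separated the groups. PCDHGA11 had 504 in EV, 718 and 592 in WT and 542 and 499 in G34W, below WT but level with EV (log2 fold change -0.32, standard error 0.31). For PCDHGA12 the signal was 326 in EV, 215 and 419.9 in WT and 191 and 465 in G34W, and for PCDHGB4 it was 199 in EV, 296 and 292 in WT and 345 and 167 in G34W. In both of these the G34W replicates lay on opposite sides of WT.

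Against EV, a single library that is assumed to vary like the others, limma gave 0 of the 37 genes an adjusted p under 0.05 for G34W (0% of all genes). At an unadjusted p under 0.05, PCDHB16 was higher, 1 of 37 against 1.13% of all genes, with a log2 fold change of 3.25, and PCDHGA10 was lower, 1 of 37 against 0.824%, with -1.36. The median log2 fold change against EV was 3.26 over the tested alpha genes, 1.71 over beta and -0.13 over gamma, against -0.03 over all genes. Over the genes that pass without G34W replicate 1 it was 1.05 for 3 alpha genes and 1.20 for 6 beta genes, and the same for gamma. This comparison shares the G34W libraries with that against WT. With a G34W library left out it sets 1 library against 1, with spread from the WT pair alone. Such fits had PCDHGA10 alone without G34W replicate 1, against 1.61% of all genes, and 13 of 37 genes, all higher, without G34W replicate 2, against 5.33% of all genes. Of the 13, 9 passed the filter only through G34W replicate 1, and among the genes that pass without it 4 of 28 were called, against 3.56%. The call of PCDHB16 was kept in 2 of 10 other settings and that of PCDHGA10 in 5 of 10.
For WT against EV limma gave 0 of the 37 an adjusted p under 0.05 (0% of all genes), and at an unadjusted p under 0.05 it had 0 higher, against 0.584% of all genes, and 0 lower, against 0.381%. The medians were 0.00 over alpha, 0.70 over beta and -0.12 over gamma, against 0.02 over all genes. The alpha value is that of genes at 0 in both groups, and over the 3 alpha genes that pass without G34W replicate 1 the median was -0.97. PCDHB15 was the only tested beta gene with a lower mean in WT than in EV, by -2.74 on the log2 scale (standard error 1.64). Without G34W replicate 2 it had an unadjusted p under 0.05, 1 of 37 genes against 1.39% of all genes in that fit.

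The non-clustered protocadherins are relatives encoded outside the 3 clusters that lack shared exons. Of 12 in the list 10 were tested, and 0 had an adjusted p under 0.05 in limma. At an unadjusted p under 0.05, 1 was higher in G34W than in WT, against 1.63% of all genes, and 0 were lower, against 1.07%. The median log2 fold change was 0.49 against -0.06 over all genes. The 1 was PCDH18, with 444 in EV, 319 and 115 in WT and 601 and 353 in G34W (log2 fold change 1.26, standard error 0.52, adjusted p = 0.9998). EV lay between its G34W values. PCDH7 and PCDH9, with the highest means over the 5 libraries, had 924 and 365 in EV, and both overlapped between G34W and WT. PCDH1, named after its values were seen, had 1122.5 in G34W replicate 1, where the next highest library had 68.1. The list as a whole summed to 2403 in EV, 2231 and 3025 in WT and 3357 and 3291 in G34W, with G34W replicate 1 close to G34W replicate 2. In G34W replicate 1 the largest part of the sum was PCDH1, and PCDH7, the largest by mean over the 5 libraries, was at its lowest. Single genes did stand out there: PCDH1, PCDH11X (68.3, next highest 14.5) and PCDH19 (10.2, at 0 in the other 4), 3 of 12, were above 2 times the other libraries, and 5 of 12 were highest there.

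Regulators of the clustered promoters, among them CTCF, cohesin subunits, DNA methyltransferases and SMCHD1, which keeps the clusters silent, were measured in all 5 libraries. Of 18 in the list 17 were tested and 0 had an unadjusted p under 0.05 between G34W and WT in limma in either direction, with a median log2 fold change of 0.00. CTCF, which binds the active promoters, had 3167 in EV, 2541 and 3464 in WT and 2605 and 3561 in G34W. SMCHD1 had 3856 in EV, 3702 and 3294 in WT and 2774 and 3122 in G34W. TRIM28, a corepressor, and RAD21, the cleaved subunit of cohesin, were the most abundant of the list, and TRIM28 had 22778 in EV, 20988 and 27806 in WT and 28537 and 21686 in G34W. CTCF overlapped between the groups, and SMCHD1 was lower in both G34W libraries than in WT, as 14.7% of all genes were. So was STAG1, a cohesin subunit, with 2488 and 2928 in G34W and 3384 and 4525 in WT, while ADNP, a zinc finger protein, was higher in both. DNMT3B, a methyltransferase that acts on these promoters and is also in the pluripotency list, had 13081 in G34W replicate 1 and 541 in EV, 515 and 458 in WT and 395 in G34W replicate 2. It was the 1 gene of the list above 2 times the highest of the other 4 libraries there, against 6.05% of all genes tested.

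Partners and proteases of the proteins include the kinases PTK2 and FYN, subunits of the WAVE complex that binds their tails, and ADAM10 and presenilin, which cleave them. Of 19 in the list, all tested, 0 had an unadjusted p under 0.05 between G34W and WT in limma, with a median log2 fold change of -0.01. NCKAP1, a WAVE subunit, and MARCKS had the highest means over the 5 libraries, which were close. NCKAP1 had 11031 in EV, 13945 and 12821 in WT and 12173 and 12932 in G34W. MARCKS, an actin-binding substrate of protein kinase C, had 11231 in EV, 10590.5 and 14278 in WT and 11899 and 14438 in G34W. Both overlapped between the groups. WASF1, also of the WAVE complex, had 554 in G34W replicate 1 and 229 in the next highest library. It was the 1 gene of the list above 2 times the others there, against 6.05% of all genes tested.

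The genes listed as neighbours of the clusters at 5q31 did not share the pattern of G34W replicate 1. This list does not hold the non-clustered protocadherins, among them PCDH1, which was high in that library. Of 12 in the deposited data 11 were tested, 0 with an unadjusted p under 0.05 between G34W and WT in limma. The median log2 fold change was -0.30, against -0.06 over all genes tested. Most of the 11 had both G34W libraries below both WT libraries, against 14.7% of all genes tested. These were HARS2, IK, WDR55, ARAP3, ZMAT2, HDAC3 and FCHSD1. The other tested neighbours overlapped. HARS1, a histidyl-tRNA synthetase and the most abundant, had 11106 in EV, 10428 and 16158 in WT and 9455 and 11658 in G34W. IK, a splicing factor that lies before the alpha cluster, had 8778 in EV, 10522 and 11982 in WT and 8376 and 9831 in G34W. TAF7 lies between the beta and gamma clusters and had 2395 in EV, 2906 and 3119.9 in WT and 3109 and 3021.5 in G34W. The 12 genes summed to 51304 in EV, 55306 and 65104 in WT and 46112 and 52952 in G34W, so G34W replicate 1, the highest library for the alpha and beta sums, was the lowest here.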

How the data were processed

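RNA-seq signal of hFOB cells was taken from 1 deposited table of 35639 genes and 6 libraries. To make it the authors ran kallisto against transcripts of Ensembl GRCh38, summed the estimated counts to genes in tximport and scaled libraries in DESeq2. The deposited unit is signal and not whole reads, so no count-based test was run. EV replicate 1 was left out. Genes with a mean of at least 10 over 5 libraries (16259) were fitted as log2(signal + 1) in limma 3.58.1 (R 4.3.3), with moderated variances that follow a trend and p-values adjusted over all tested genes by Benjamini and Hochberg, at a threshold of 0.05. EV, with 1 library, was assumed to vary like the others. Sums per cluster were compared by exact permutation. The fit was tested on simulated data. Depth was approximated from the step of low values, with a tolerance of 0.01; in EV replicate 1 the step was 13.6.

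The members and lists were chosen with earlier results of these data known. Genes named were (a) the 5 members of each cluster with the highest mean, (b) C-type members, (c) members with an unadjusted p under 0.05 between G34W and WT, (d) members with G34W replicate 1 above 2 times the highest of the other 4 libraries, (e) members with both G34W libraries beyond both WT libraries and a log2 difference over 1, (f) PCDHA10 and PCDHB16, which the study's own gene list, made from these samples, names, and (g) in each list the genes with an unadjusted p under 0.05 or the 2 with the highest mean. Other genes were named after their values were seen.

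Alternatives were other sets of libraries, EV and WT as 1 control group, no variance trend, a pseudocount of 0.1, no filter, a replicate block, rescaling to a median ratio of 1, and each library left out; a block with only the 4 G34W and WT libraries was added after the data were seen. Python 3.11.15 with numpy 2.4.6, pandas 2.3.3, scipy 1.17.1 and matplotlib 3.10.9 made tables and figures. Promoter sequences and coordinates are from RefSeq on GRCh38.p14 (NCBI), and transcript lengths from GENCODE v44lift37, used for lengths and exon structure only.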

Additional observations from a re-analysis of the deposited data

Results flagged for a closer look

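Values were picked out when a library outside the comparisons, or a gene outside the rule, was above 2 times the highest of EV replicate 2 and WT and above 3 steps of its own library. In EV replicate 1, whose step is 13.6, this picked 8 of the 15 members above 0. The values were 47.6 for PCDHA10 (others 7.66 to 19.7), 277 for PCDHA4 (47.0 to 83.6), 93.2 for PCDHB11 (13.6 to 21.2), 95.1 for PCDHB13 (7.22 to 34.2), 68.1 for PCDHB16 (5.22 to 9.75), 136 for PCDHGA5 (6.87 to 11.7), 302 for PCDHGA6 (25.3 to 56.8) and 57.6 for PCDHGA9 (16.1 to 24.5). Most genes are at 0 in this library, which sums to 157595150, against at most 48024590 in the others. As a share of the library sum only PCDHGA5 was above 2 times the highest of the others, and PCDHA10, PCDHA4, PCDHB13 and PCDHGA9 were below the highest. None of these differences was tested. Among pseudogenes of the beta cluster in G34W replicate 1, PCDHB17P had 18.4 where EV and WT were at 0, and PCDHB18P had 41.2 where they had 0 to 4.59. Both are outside the rule for members, and the difference was not tested.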

How the results depend on the processing

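Between G34W and WT, 3 members had an unadjusted p under 0.05. There were 0 with all 6 libraries, 5 with EV and WT as 1 control group, 5 without a variance trend and 1 to 12 over fits with 1 library left out. The 3 were not always the same: of 13 settings PCDHA10 was called in 9, PCDHB15 in 11 and PCDHGA10 in 9, with PCDHA10 lost without a trend and both PCDHA10 and PCDHGA10 lost without the filter. Of these settings, that without EV replicate 2 and that with only the 4 G34W and WT libraries are the same fit. The share of all genes with an unadjusted p under 0.05 in limma was 2.7% in the main fit and 0.0788% with all 6 libraries. It was 4.52% with EV and WT as 1 control group and 2.99% without a variance trend. In these settings the number of members moved in the same direction as this share. Most members called without G34W replicate 2 passed the filter only through G34W replicate 1. Between G34W and EV, 2 members became 1 with all 6 libraries, 1 with the replicate block, 0 after rescaling and 1 to 13 with 1 library left out. With all 6 libraries the 1 was PCDHA7, without a trend the 2 were PCDHA7 and PCDHGA8, and without the filter PCDHA2 and PCDHB9, so PCDHB16 and PCDHGA10 were lost in these 3 settings and after rescaling. Between WT and EV, 0 became 2 without a trend and 0 to 1 with 1 library left out. Over all genes, 0 had an adjusted p under 0.05 in each comparison. With a pseudocount of 0.1 there was 1 for G34W against EV and 1 for WT against EV. With 1 library left out there were 0 to 6 for G34W against WT, 0 to 1 for G34W against EV and 0 to 4 for WT against EV. The log2 fold change of PCDHGC3 ranged from -0.30 (reversed, without G34W replicate 2) to 0.54 (without G34W replicate 1), and the gamma sum difference moved to -0.29 without PCDHGC3.

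The replicate block (pairing correlation 0.0945) gave 715 genes with an unadjusted p under 0.05 between G34W and WT, against 439 without it, with the same 3 members. The block with only the 4 G34W and WT libraries, chosen after the data were seen, gave 719. Unadjusted counts for G34W against WT were 13 with all 6 libraries, 735 with EV and WT as 1 control group, 791 without the filter and 1497 without G34W replicate 2.

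Limits: groups hold 1 or 2 libraries, the infection behind each library is not given, and directions between G34W and WT rest on titles that the genotype field contradicts. Values of single genes depend on how reads in shared exons or alike paralogs were split.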
